A study of Macaca mulatta with 11 samples.

Results

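The insulin-like growth factor (IGF) family was followed across donor age in mesenchymal stem cell cultures grown from rhesus monkey (Macaca mulatta) bone marrow. The family comprised the ligands IGF1 and IGF2, the receptors IGF1R and IGF2R, and the binding proteins IGFBP2 to IGFBP7. Every probe set of the array whose annotated gene symbol was, or included, a member of the family was taken, which gave 25 of 22215 probe sets for 10 genes. IGFBP5 had 5 of these probe sets, IGF1 had 4, IGF2, IGF1R and IGFBP7 had 3 each, IGF2R and IGFBP3 had 2 each, and IGFBP2, IGFBP4 and IGFBP6 had 1 each. All 3 IGF2 probe sets carried the symbol of the INS-IGF2 readthrough gene as well, so that transcripts of the 2 annotations cannot be told apart. RNA from 11 cultures was hybridised to 1 oligonucleotide array each, annotated with human genes. By source name, 2 cultures came from donors at gestation day 120, 2 from newborns, 4 from infants and 3 from adults. The titles called the first 4 of these fetal, and this fetal group was the one set against the infants and the adults. Infant donors were 6, 6, 3 and 5 months old for arrays 1 to 4, and adult donors were 7, 7 and 8 years old for arrays 1 to 3. No treatment or genetic change was labelled, and cells of all ages were collected at passage 2 before confluence. Marrow was flushed from long bones in fetal and newborn donors and aspirated in infants and adults, so that age and the way of taking marrow cannot be told apart between those groups. Separate animals were not stated for each array, and p-values therefore measure the spread between these cultures.

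IGF1 and IGF2 are secreted peptides that act through IGF1R, a receptor tyrosine kinase upstream of the PI3K-AKT and MAP kinase pathways. IGF2R, the mannose 6-phosphate receptor, takes IGF2 into the cell for breakdown and does not signal as IGF1R does. The binding proteins hold IGFs outside the cell, where they can withhold a ligand from its receptor or carry it. In mammals IGF2 is best known as a growth factor of the fetus and IGF1 as the mediator of growth hormone after birth, and bone-forming cells and marrow stroma secrete both ligands and several of the binding proteins.

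The values are log2 intensities. Human probes read monkey RNA here, and their match to the monkey sequence enters the level, so that levels are set against each other within a probe set and otherwise only called dim or bright. The median of all log2 values was 7.38. Of 13 marrow stromal markers measured, 11 had a mean above that median in these cultures, among them the collagen genes, while NT5E and LEPR lay below it. Array medians lay between 164.9 and 169.6 intensity units. The small number of arrays at each age limits the precision. In these bulk cultures fewer cells of a type and less RNA per cell cannot be told apart. Some arrays stood apart for genes outside the family. Adult array 3 read 11.23 for the brighter probe set of XIST, which silences an X chromosome, against 7.27 to 8.40 in the other arrays. The dimmer XIST probe set read 7.96 in it, against 6.29 to 7.09. For the Y-linked RPS4Y1 adult array 3 read 7.81, against 11.3 to 12.16. Adult arrays 1 and 2 read 12.82 and 13.23 for the brightest probe set of IGLC1, an immunoglobulin light chain gene, where adult array 3 read 9.10 and the other 8 arrays lay between 7.82 and 8.30. Differences that depend on these adult arrays are therefore given below with and without them.

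Between adult and fetal cultures the family showed IGF2 and IGFBP6 lower and IGF1 and IGFBP4 higher in adults, but no member passed the test over all probe sets. At a limma adjusted p under 0.05, 0 of 25 family probe sets were called, against 29 of 22215 in all (0.131%). At an unadjusted p under 0.05 there were 10 of 25, 6 higher and 4 lower in adults, against 8.96% of all probe sets. The higher ones were those of IGF1 and IGFBP4 and IGFBP7 201162_at, and the lower ones those of IGF2 and IGFBP6. Probe sets of the same gene read the same RNA and are not separate observations. The adult and fetal arrays did not overlap for 7 of 25, against 8.08% of all probe sets. Of these, 3 were higher in adults, 2 of IGF1 and the probe set of IGFBP4, against 4.41% of all probe sets in that direction. For IGF1 209540_at this rested on a near tie, with 7.14 in both adult array 3 and newborn array 4. The other 4 were lower in adults, the 3 of IGF2 and the probe set of IGFBP6, against 3.66%. The median adult minus fetal difference was 0.08 log2 over the family and 0.01 over all probe sets, with 16 family probe sets higher and 9 lower. Over fetal, infant and adult cultures together, limma's F test called 0 of 25, against 0.0360% of all probe sets, and the smallest adjusted p of the family was 0.0836, for IGFBP6. At an unadjusted p under 0.05 the F test had 9 of 25, those of IGF1, IGF2, IGFBP4 and IGFBP6, against 8.01% of all.

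IGF2 was lower in adult than in fetal cultures by 1.22, 1.27 and 1.26 log2 on its 3 probe sets, or 2.33-, 2.41- and 2.4-fold. Its brightest probe set, 202409_at, read 10.89 and 11.60 in the gestation day 120 arrays, 11.47 and 11.88 in the newborn arrays, 10.62, 10.81, 11.90 and 10.47 in infant arrays 1 to 4 and 10.42, 9.74 and 10.55 in adult arrays 1 to 3. All 3 adult arrays lay below all 4 fetal arrays, and the infant arrays spread from the adult range (array 4) to the top of the fetal range (array 3). The means of this probe set were 10.24 ± 0.43 (SD, n = 3) in adult and 11.46 ± 0.42 (SD, n = 4) in fetal cultures, with a limma SE of 0.31 on the difference and an adjusted p of 0.179. Probe set 202410_x_at, whose suffix marks probes that can match other transcripts, read 9.37 and 9.84 in the gestation day 120 arrays, 9.51 and 9.68 in the newborn arrays, 8.995, 9.29, 9.49 and 8.18 in infant arrays 1 to 4 and 8.34, 8.59 and 8.06 in adult arrays 1 to 3. Infant array 4 lay among the adults here, and the other infant arrays lay between the adult and the fetal values or within the fetal range. Probe set 210881_s_at read 9.65 and 10.65 in the gestation day 120 arrays, 10.43 and 9.93 in the newborn arrays, 9.65, 9.59, 10.34 and 9.21 in infant arrays 1 to 4 and 9.03, 8.99 and 8.71 in adult arrays 1 to 3. On it the adult arrays lay below every other array, infants included. Their adult minus fetal differences had limma adjusted p of 0.0646 and 0.0697, close to the threshold but not past it. The 3 probe sets gave like patterns over the 11 arrays, with Pearson correlations of 0.792, 0.842 and 0.906 between them, which is a description since they read the same RNA. When any 1 adult or fetal array was left out, the difference stayed between -1.43 and -0.97 over the 3 probe sets. Without adult arrays 1 and 2 it was -0.91, -1.54 and -1.46, so that adult array 3 was below the fetal mean on each probe set as well. 210881_s_at passed the test when fetal array 4 was left out (limma adjusted p = 0.0495).

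IGF1 was higher in adult than in fetal cultures on all 4 probe sets, by 0.38 to 1.13 log2, and this difference came mainly from adult arrays 1 and 2. Probe set 209542_x_at read 7.30 and 7.63 in the gestation day 120 arrays, 7.81 and 7.68 in the newborn arrays, 7.39, 7.70, 7.65 and 7.98 in infant arrays 1 to 4 and 9.07, 9.23 and 7.91 in adult arrays 1 to 3. Adult arrays 1 and 2 were over 1 log2 above every fetal and infant array, while adult array 3 lay below infant array 4. The suffix of this probe set, too, marks probes that can match other transcripts. The adult mean was 8.74 ± 0.72 (SD, n = 3), against 7.60 ± 0.22 (SD, n = 4) in fetal cultures, a difference of 1.13 log2 (2.19-fold) that did not pass (limma adjusted p = 0.109). The brightest probe set, 211577_s_at, read 7.84 and 7.81 in the gestation day 120 arrays, 8.08 and 7.92 in the newborn arrays, 7.64, 7.66, 7.92 and 7.92 in infant arrays 1 to 4 and 8.57, 8.32 and 7.99 in adult arrays 1 to 3. Again adult arrays 1 and 2 were the highest, and adult array 3 lay within the fetal range. It differed by 0.38 between adult and fetal cultures (limma adjusted p = 0.39). The other probe sets, 209540_at and 209541_at, had means below the median of all log2 values and differed by 0.47 and 0.44 (limma adjusted p = 0.257 and 0.407). With adult array 3 as the only adult array the differences of 211577_s_at, 209540_at and 209541_at were 0.08, 0.19 and 0.05, and without it 0.53, 0.60 and 0.63, none of which passed. Without adult array 3 the adult minus fetal difference of 209542_x_at was 1.55 and passed the test (limma adjusted p = 0.000278). With adult array 3 as the only adult array, it was 0.31, a size only, since 1 array shows no spread among adults. Of 8 marker genes of plasma cells, the antibody-secreting cells of marrow, 3 read above all fetal and infant arrays in both adult arrays 1 and 2. These were the immunoglobulin light chain genes IGLC1 and IGKC and the joining chain gene JCHAIN, whereas IGHM, IGHG1, MZB1, SDC1 and CD38 were not. The summed intensity of the 8 genes, as log2, which IGLC1 dominated, was 13.20 and 13.58 in adult arrays 1 and 2 and 11.06 in adult array 3, against 10.81 to 10.98 in fetal and 10.73 to 11.02 in infant arrays. The summed level of leukocyte and macrophage markers, 11 of 12 measured, did not move in this way. It was 11.04 to 11.12 in adult, 11.03 to 11.11 in fetal and 10.96 to 11.10 in infant arrays. Gene by gene, CD14, TYROBP and CD3E did read above all fetal and infant arrays in both adult arrays 1 and 2. They read 7.64 and 7.72, 7.445 and 7.85, and 7.85 and 7.77, against at most 7.56, 7.385 and 7.745. The other leukocyte and macrophage markers measured did not. The part of immunoglobulin-producing cells in the IGF1 readings was not tested.

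**Figure D1:**
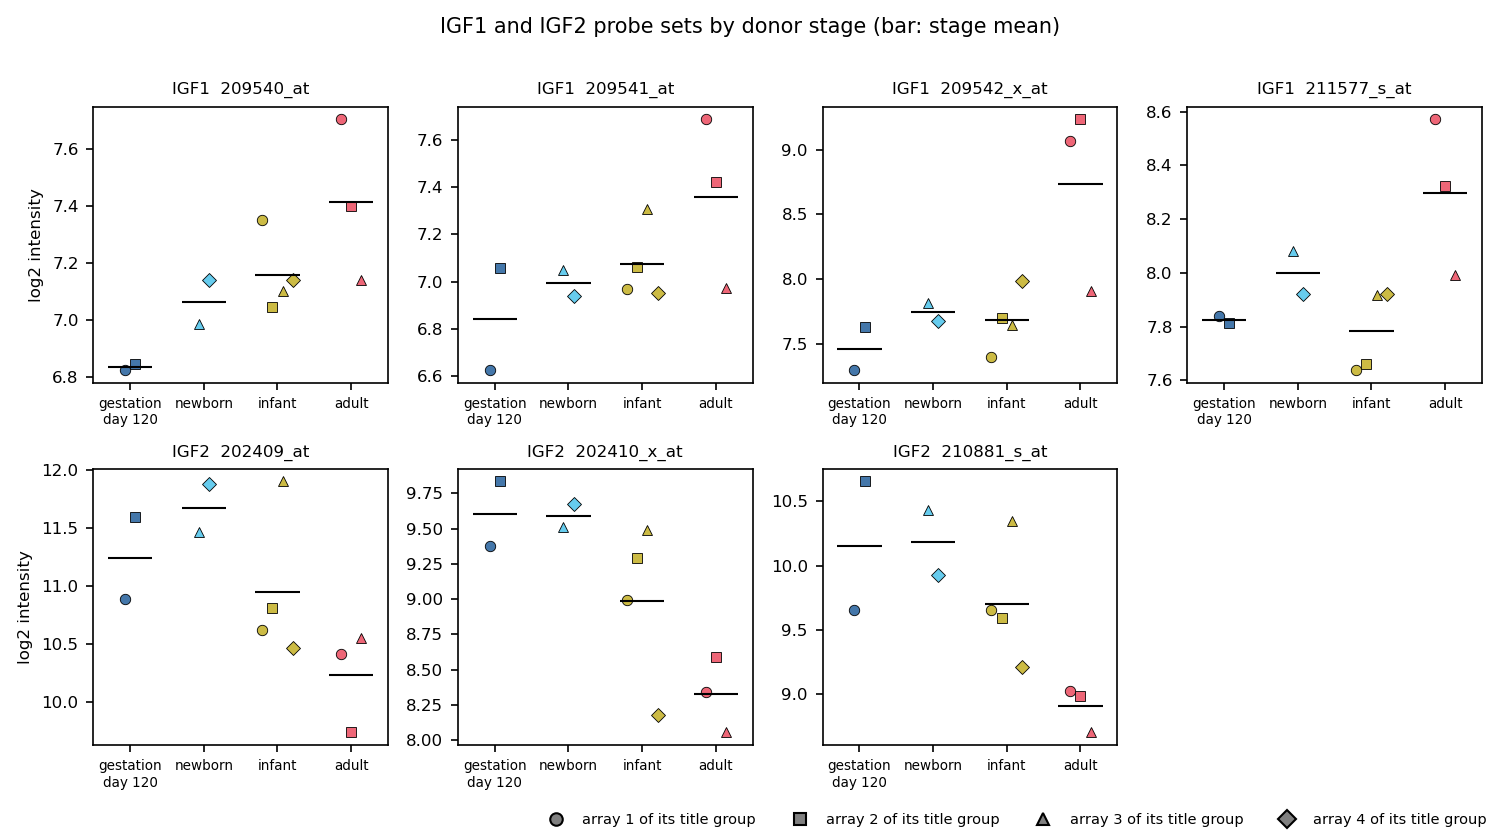
Log2 intensity of the 4 IGF1 and 3 IGF2 probe sets (vertical axis) in each array, by stage from gestation day 120 to adult (horizontal axis). Each point is 1 array, its marker the array number, and each bar the mean of a stage. The adult points lie below all points of gestation day 120 and newborn cultures for every IGF2 probe set, and adult arrays 1 and 2 lie highest for every IGF1 probe set.

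Neither receptor passed the test between any ages. IGF1R, the receptor through which both ligands signal, read 8.57 and 8.48 in the gestation day 120 arrays, 8.46 and 8.85 in the newborn arrays, 8.26, 8.46, 8.22 and 8.46 in infant arrays 1 to 4 and 7.93, 7.75 and 8.86 in adult arrays 1 to 3 on its brightest probe set, 203627_at. Adult arrays 1 and 2 were the lowest of the 11 arrays, and adult array 3 was the highest, level with newborn array 4. The adult minus fetal difference was -0.41 (95% interval -0.85 to 0.03, limma adjusted p = 0.602). It was -0.75 and passed the test without adult array 3 (limma adjusted p = 0.0217), and 0.27 with adult array 3 alone. Of the 2 other IGF1R probe sets, 203628_at had a difference of -0.18 and 208441_at one of 0.06, and 208441_at was dim, with a mean under the overall median. IGF2R, which clears IGF2, had group means that lay close together. Its bright probe set, 201393_s_at, read 9.76 and 10.21 in the gestation day 120 arrays, 9.92 and 10.78 in the newborn arrays, 9.98, 10.07, 10.03 and 10.07 in infant arrays 1 to 4 and 10.21, 10.30 and 10.16 in adult arrays 1 to 3. Newborn array 4 was the highest, and the adult arrays lay within the fetal range. The adult minus fetal difference was 0.06, with a 95% interval of -0.33 to 0.44, and the dimmer probe set 201392_s_at differed by 0.02 (-0.27 to 0.31).

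IGFBP6, which binds IGF2 in preference to IGF1, was the binding protein with the widest gap between the ages. Its probe set, 203851_at, read 10.57 and 9.73 in the gestation day 120 arrays, 9.64 and 10.34 in the newborn arrays, 10.67, 10.81, 9.81 and 10.37 in infant arrays 1 to 4 and 8.54, 8.47 and 9.30 in adult arrays 1 to 3. The adult arrays lay below all fetal and all infant arrays, and the infant and fetal ranges overlapped. The adult mean was 8.77 ± 0.46 (SD, n = 3). Fetal cultures averaged 10.07 ± 0.45 (SD, n = 4), and infant cultures 10.41 ± 0.45 (SD, n = 4). The difference was -1.30 against fetal cultures (2.46-fold lower, limma adjusted p = 0.0831) and -1.64 against infant cultures (3.12-fold lower, limma adjusted p = 0.107). Neither passed the test, although the adult minus infant difference had the p of rank 7 among all probe sets. Both passed when adult array 3, the highest of the adults, was left out, at -1.57 and -1.91 log2 with limma adjusted p of 0.0179 and 0.00582. With adult array 3 alone they were -0.77 and -1.11.

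IGFBP4, an inhibitor of IGF action that the protease PAPPA cleaves, was higher in every adult array than in every fetal array. Its probe set, 201508_at, read 12.30 and 12.62 in the gestation day 120 arrays, 12.57 and 12.76 in the newborn arrays, 12.44, 12.57, 13.05 and 12.76 in infant arrays 1 to 4 and 13.06, 12.94 and 13.10 in adult arrays 1 to 3. The adult arrays were close to each other, and infant array 3 reached their level. Its difference between adult and fetal cultures, 0.47 (1.39-fold), did not pass (limma adjusted p = 0.289), and it was 0.44 without adult array 3 and 0.54 with adult array 3 alone.

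IGFBP2, IGFBP3, IGFBP5 and IGFBP7 varied among the adult arrays by more than the adult and fetal means differed. IGFBP2, a binding protein of fetal serum and of many cultured cells, read 12.62 and 13.22 in the gestation day 120 arrays, 12.80 and 13.07 in the newborn arrays, 12.39, 12.50, 13.16 and 13.84 in infant arrays 1 to 4 and 11.73, 11.56 and 13.23 in adult arrays 1 to 3. Adult arrays 1 and 2 were the lowest of the 11, and adult array 3 was nearly level with the highest fetal array (13.23 and 13.22). The adult minus fetal difference was -0.75 (95% interval -1.56 to 0.06, limma adjusted p = 0.603), but it was -1.28 without adult array 3 and 0.31 with it alone. IGFBP3, the main carrier of IGFs in blood, read 9.96 and 10.56 in the gestation day 120 arrays, 10.22 and 9.62 in the newborn arrays, 10.18, 10.07, 11.17 and 9.51 in infant arrays 1 to 4 and 9.39, 9.56 and 11.32 in adult arrays 1 to 3 on its bright probe set, 210095_s_at. Adult array 3 and infant array 3 were the highest, and adult arrays 1 and 2 and infant array 4 the lowest, which left the adult and fetal means alike at 10.09 each (95% interval of the difference -0.92 to 0.91). The difference was -0.62 without adult array 3 and 1.23 with it alone. Its second probe set, 212143_s_at, read 8.48 in adult array 3, against 7.42 to 7.74 in the other arrays.

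IGFBP5, which binds to extracellular matrix and is abundant in bone, had 4 bright probe sets that ran in parallel, with correlations of 0.795 to 0.952 between them, and a much dimmer one, 203426_s_at, that did not follow them (0.074 to 0.338). The brightest, 211959_at, read 12.34 and 12.83 in the gestation day 120 arrays, 12.70 and 14.03 in the newborn arrays, 12.93, 13.09, 13.33 and 13.75 in infant arrays 1 to 4 and 12.84, 13.09 and 13.81 in adult arrays 1 to 3. Newborn array 4, adult array 3 and infant array 4 were the highest, and the first gestation day 120 array was the lowest. The adult minus fetal difference was 0.28 (95% interval -0.44 to 0.99, limma adjusted p = 0.869), and the other bright probe sets differed by 0.28, 0.63 and 0.66, none of which passed. Without adult array 3 the difference of 211959_at was -0.01, and with adult array 3 alone it was 0.84. IGFBP7, a related secreted protein that binds IGFs only weakly, read 11.80 and 12.11 in the gestation day 120 arrays, 11.96 and 12.45 in the newborn arrays, 12.23, 12.19, 12.24 and 12.15 in infant arrays 1 to 4 and 12.19, 12.40 and 13.40 in adult arrays 1 to 3 on probe set 201162_at. Adult array 3 stood nearly 1 log2 above the next highest array, newborn array 4, and the other adults lay within the newborn range. Adult and fetal means differed by 0.58, which did not pass (limma adjusted p = 0.445), and it was 0.22 without adult array 3. With adult array 3 alone it was 1.32, given as a size only, since 1 array shows no spread among adults. Probe set 201163_s_at followed it (r = 0.817) with a difference of 0.26, while 213910_at, which was dim, did not (r = 0.16).

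**Figure D2:**
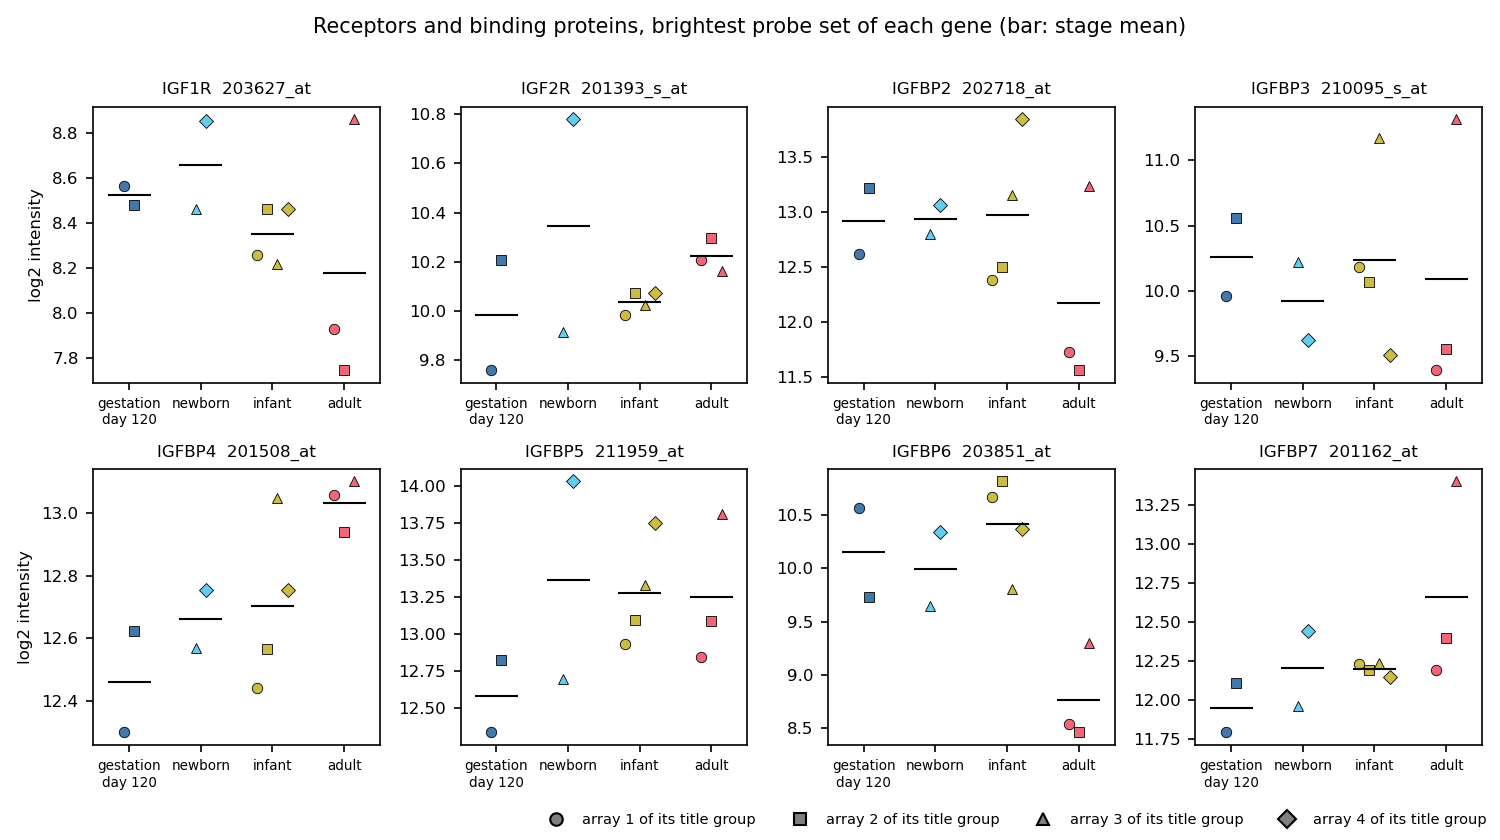
Log2 intensity of the brightest probe set of IGF1R, IGF2R and the 6 binding proteins (vertical axis) in each array, by stage (horizontal axis). Points are single arrays, marked by array number, and bars are stage means. IGFBP6 is lowest in the 3 adult arrays, whereas adult array 3 lies apart from adult arrays 1 and 2 for IGF1R, IGFBP2, IGFBP3 and IGFBP7.

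**Figure D3:**
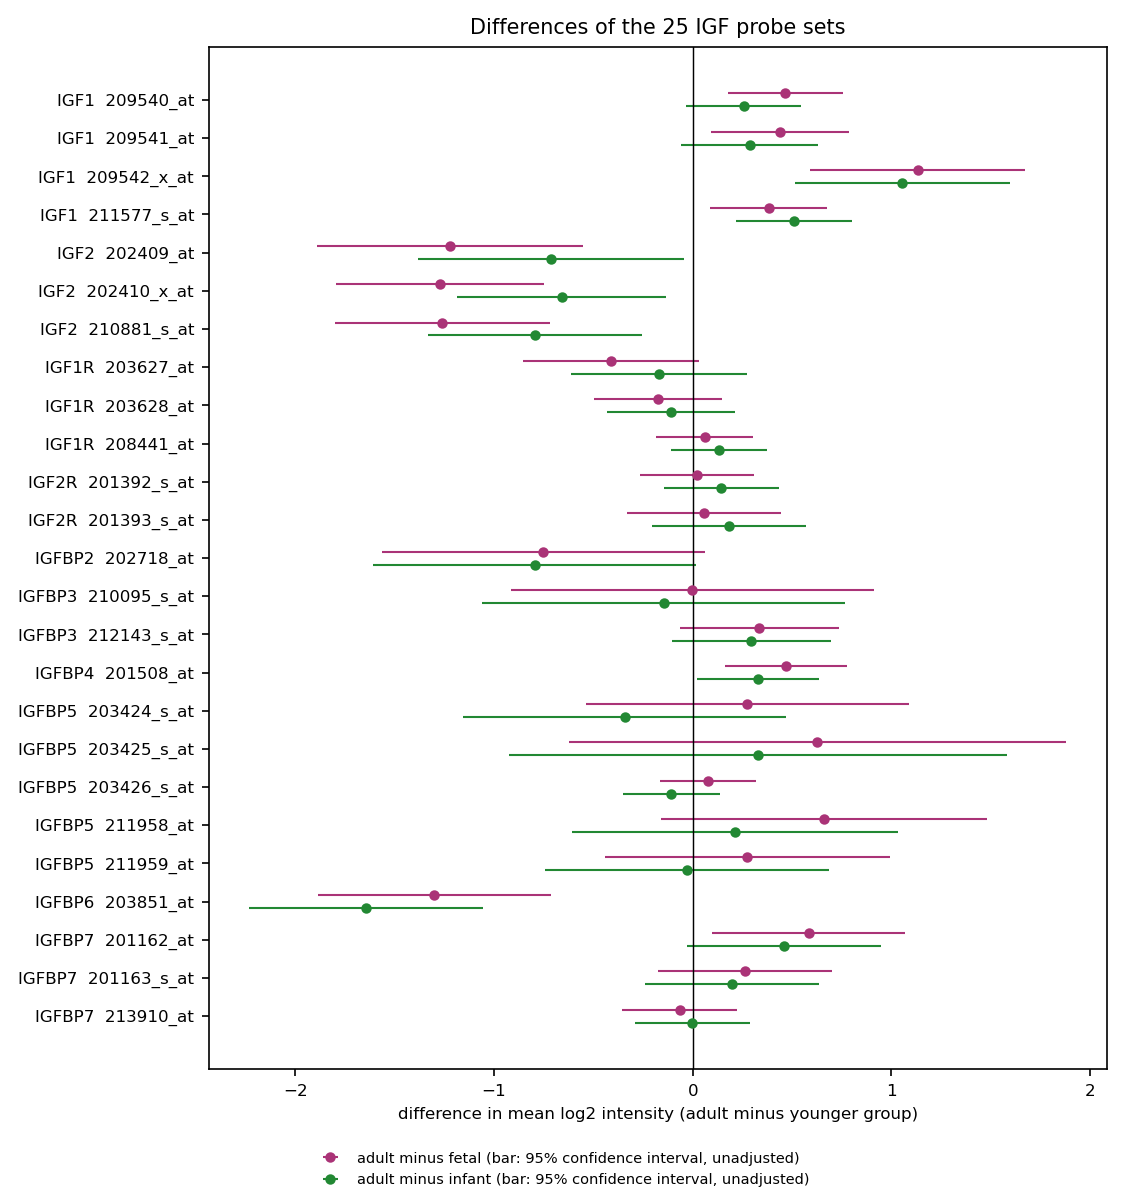
Log2 differences (horizontal axis) of the 25 probe sets of the family between adult and fetal and between adult and infant cultures, with unadjusted 95% intervals as bars. Between adult and fetal cultures the IGF2 and IGFBP6 probe sets lie furthest below 0 and IGF1 209542_x_at furthest above it, and none passed the test over all probe sets.

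The spread among the 3 adult cultures was itself wide in the family. Adult array 3 differed by over 1 log2 from the mean of adult arrays 1 and 2 for 8 of 25 family probe sets, against 1.37% of all probe sets and 2.71% of the 10983 whose mean lay above the median of all log2 values. This was not tested, since adult array 3 is 1 culture. It was higher than the others for 7 of these, at IGF1R 203627_at, IGFBP2, IGFBP3 210095_s_at, IGFBP7 201162_at and IGFBP5 203424_s_at, 203425_s_at and 211958_at. It was lower for IGF1 209542_x_at. The widest gap was at IGFBP5 203425_s_at, which read 9.23, 9.63 and 12.13 in adult arrays 1 to 3, a difference of 2.70 log2 or 6.5-fold. IGFBP2 and IGFBP3 were 3.00- and 3.59-fold higher in adult array 3. IGF2R 201393_s_at and IGFBP4 were level among the adults, with differences of -0.09 and 0.10. On the first principal component of all probe sets, which held 23.1% of the variance, the first 2 adult and the first 2 infant arrays lay between -20.5 and -16.1 and all other arrays between 6.7 and 19.5, adult array 3 being at 19.5. The part of this division, or of the XIST and RPS4Y1 readings of adult array 3, in the IGF binding protein levels was not tested.

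**Figure D4:**
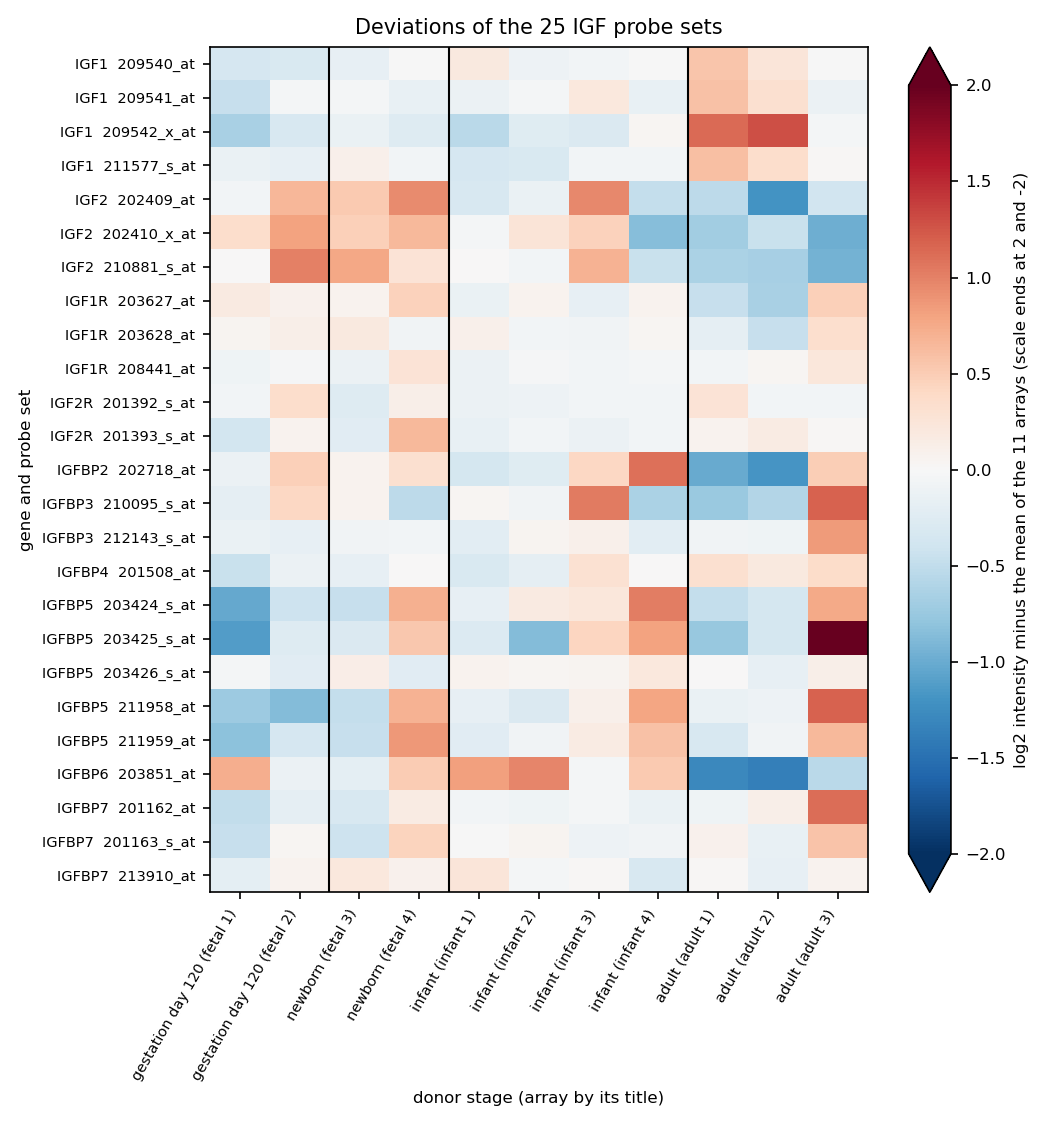
Heat map of the 25 probe sets of the family (vertical axis) in the 11 arrays (horizontal axis), as log2 intensity minus the mean of the 11 arrays, on a colour scale from -2 to 2. The IGF2 probe sets are below their means in the adult arrays, and adult array 3 is above its means for IGFBP2, IGFBP3, IGFBP5 and IGFBP7.

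**Figure D5:**
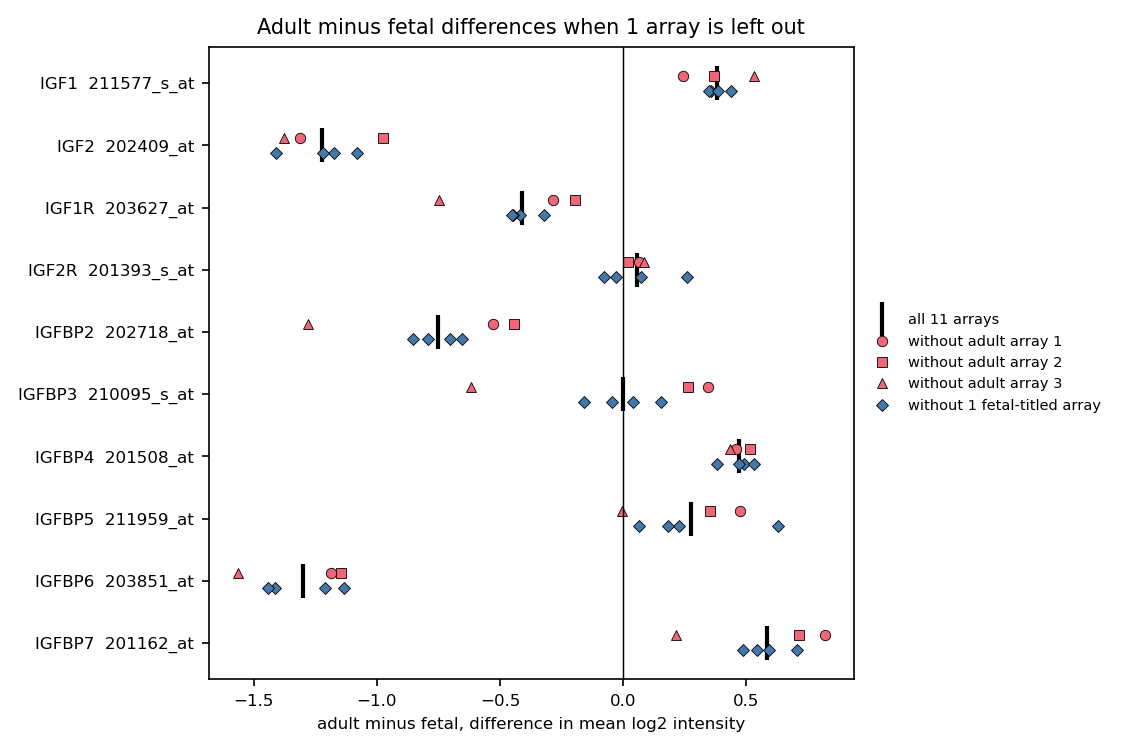
Adult minus fetal log2 difference (horizontal axis) of the brightest probe set of each of the 10 genes with all arrays and with 1 adult or 1 fetal array left out. The IGF2 difference stays between -1.41 and -0.97 and that of IGFBP6 between -1.57 and -1.14, while that of IGFBP3 runs between -0.62 and 0.35.

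Against infant cultures, adult cultures again had lower IGFBP6 and IGF2 and higher IGF1 readings, none of which passed. At a limma adjusted p under 0.05, 0 of 25 family probe sets were called, against 0.0180% of all probe sets (4), and 0 again with the replicate number as a block, which called 9 in all. At an unadjusted p under 0.05 there were 7 of 25, against 6.19% of all. Adult and infant arrays did not overlap for 4 of 25, against 4.98%. IGFBP6 and IGF2 210881_s_at were lower in adults (1.80% of all in that direction), and IGF1 211577_s_at and IGF2R 201393_s_at were higher (3.18%). IGF2 was lower in adults by 0.72, 0.66 and 0.79 log2 (limma adjusted p = 0.77, 0.71 and 0.602). IGF1 211577_s_at was higher by 0.51 (limma adjusted p = 0.465) and 209542_x_at by 1.06 (0.375). Without adult array 3 the 209542_x_at difference was 1.47 and passed (limma adjusted p = 0.000565). IGFBP2 was lower by 0.80 (0.805), and this turned to 0.26 higher with adult array 3 as the only adult array. The adult minus fetal and adult minus infant comparisons share the adult arrays, so that their like directions are not separate observations.

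No member passed between infant and fetal cultures, and IGF2 had the lowest p of the family. At a limma adjusted p under 0.05, 0 of 25 family probe sets and 0 of all (0%) were called. At an unadjusted p under 0.05 there was 1 of 25, IGF2 202410_x_at, against 6.87% of all (1527), and the arrays overlapped for all 25, where 3.34% of all probe sets did not overlap, 1.21% higher and 2.13% lower in infants. IGF2 was lower in infants by 0.51, 0.61 and 0.47 log2 on 202409_at, 202410_x_at and 210881_s_at (limma adjusted p = 0.79, 0.648 and 0.747). Leaving out 1 array moved these differences to between -0.82 and -0.35, between -0.78 and -0.34, and between -0.68 and -0.30. The mean of each IGF2 probe set thus ran in the order fetal, infant, adult from high to low, but neighbouring groups overlapped, apart from adult and infant arrays on 210881_s_at. IGFBP6 did not follow that order, with infants 0.34 above fetal cultures (95% interval -0.20 to 0.89).

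Newborn and gestation day 120 cultures, 2 arrays each, also gave 0 calls among the family and among all probe sets (0%) with limma, and at an unadjusted p under 0.05 there were 0 of 25, against 1.81% of all (402). The arrays did not overlap for 6 of 25, against 28.8% of all probe sets. All 6 were higher in newborns, the direction of 13.7% of all probe sets, while 15.2% were lower. These were IGF1 209540_at, 209542_x_at and 211577_s_at, IGFBP3 212143_s_at, IGFBP5 211958_at and IGFBP7 213910_at. The widest differences were those of IGFBP5, at 0.84, 0.82, 0.91 and 0.78 on its bright probe sets (limma adjusted p of 1 for each). Newborn array 4 was above both gestation day 120 arrays on all 4, and newborn array 3 was above both only on 211958_at. IGF2 202409_at, 202410_x_at and 210881_s_at differed by 0.43, -0.01 and 0.03, with 95% intervals of -0.45 to 1.31, -0.73 to 0.71 and -0.72 to 0.77.

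Genes that act around the family were described from 5 lists. Among regulators outside the cell, such as the proteases and stanniocalcins that free IGFs or keep them bound, 14 of 15 were measured and 0 passed between adult and fetal cultures, with 8 higher and 6 lower and a median difference of 0.03. HTRA1, a serine protease that cleaves IGF binding proteins, averaged 12.19 in infant and 11.40 in fetal cultures, a difference of 0.79 that did not pass (limma adjusted p = 0.432), and 11.70 in adults. Without infant array 3 that difference was 1.03 and passed (limma adjusted p = 0.0126). STC1, a stanniocalcin, differed by 0.43 between adult and fetal cultures (limma adjusted p = 0.631). This was 0.05 without adult array 3 and 1.18 with it alone. Of the CCN and other proteins related to the binding proteins, 8 of 9 were measured and 0 passed, with a median difference of 0.03. CCN1 and ESM1, secreted matrix-associated proteins, differed by 0.28 and 0.14 between adults and fetal cultures (limma adjusted p = 0.689 and 0.838).

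Of 8 listed partners of IGF2 RNA and of its locus 5 were measured, and 1 passed between adult and fetal cultures. The median difference was -0.45, beside 0.01 over all probe sets, and M6PR and GNPTAB, which act in the mannose 6-phosphate pathway, differed by only -0.01 and -0.02. IGF2BP3, an RNA-binding protein of fetal tissues that binds IGF2 messenger RNA, fell by 0.82 on its called probe set (SE 0.14, limma adjusted p = 0.0381). That probe set averaged 6.72 in adult and 7.53 in fetal cultures, around or below the median of all log2 values. On the 2 other IGF2BP3 probe sets the differences were -0.18 and -0.05 (limma adjusted p = 0.641 and 0.938), so that the call rested on 1 of 3. It was lost when adult array 1 or 2 or fetal array 1, 2 or 3 was left out (limma adjusted p = 0.0508 to 0.176). PLAGL1, an imprinted zinc finger factor, and IGF2BP2 differed by -0.71 and -0.45 without passing (limma adjusted p = 0.165 and 0.564). The other PLAGL1 probe sets differed by -0.22 and 0.12.

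Downstream of the receptors, 30 of 37 insulin and IGF signalling genes were measured and 0 passed between adult and fetal cultures, with 17 higher, 13 lower and a median of 0.02. AKT2, a kinase of the pathway, and TSC1, a brake on its growth branch, differed by 0.18 each (limma adjusted p = 0.703 and 0.721). Of the growth hormone axis, 5 of 5 genes were measured and 0 passed, with a median of 0.12. GHR, the growth hormone receptor, differed by 0.28 (limma adjusted p = 0.536) and STAT5B, a transcription factor it activates, by 0.13 (adjusted p = 0.786). No gene of the 5 lists passed in adult minus infant, infant minus fetal or newborn minus gestation day 120 comparisons.

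The probe sets of other genes whose pattern over the 11 arrays was most like that of IGF2 202409_at belonged to SRRM1 (Pearson r = 0.930, Spearman rho = 0.907), SLC25A32 (0.922, 0.873), KCTD9 (0.906, 0.938), XPC (0.898, 0.927) and MTA1 (0.881, 0.836). For IGFBP6 they were SMAD3 (0.930, 0.825), SNX13 (0.922, 0.879), ATP5MJ (0.916, 0.934), TSPAN4 (0.895, 0.936) and KLF1 (0.887, 0.934). Those most like IGF1 211577_s_at included 2 immunoglobulin genes, IGHD (0.921, 0.868) and IGKC (0.906, 0.784), beside SLC7A6 (0.912, 0.790), FA2H (0.907, 0.795) and TSPO2 (0.899, 0.662). These coefficients describe the best of 19043 probe sets ranked over the same 11 arrays, and are given without a test. The probe sets of SLC25A32, KCTD9, ATP5MJ, SLC7A6 and FA2H were dim, with means of 6.96 to 7.32, under the overall median. Those of IGHD and IGKC carry the suffix of probes that can match other transcripts. In the rhesus annotation of assembly T2T-MMU8v2.0 IGFBP2 and IGFBP5 are neighbouring genes, and IGFBP3 neighbours IGFBP1, which the array read between 6.55 and 7.35 in all cultures. Both neighbours IGFBP2 and IGFBP5 read higher in adult array 3 than in adult arrays 1 and 2. So did IGFBP3, IGFBP6 and IGFBP7, which do not neighbour them, so that this was not particular to the neighbours.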

How the data were processed

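Biotin-labelled total RNA of 11 cultures was hybridised to 1 array each, per the labels' protocols. Per the submitters' processing notes the authors used RMA, which subtracts background, brings arrays to a common distribution and gives 1 value per probe set. The deposited intensity was linear, with the lowest value at 75.3, and log2 was taken here. A detection call was not used here. Of 22215 probe sets, 19065 had 1 gene symbol, 1043 several and 2107 none.

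With limma 3.58.1 (R 4.3.3), lmFit and eBayes were run on a model of the 3 title groups (fetal, infant, adult) over 11 arrays, two-sided, and a fit with 1 mean per stage compared newborn with gestation day 120. Probe sets were called at an adjusted p under 0.05 (Benjamini-Hochberg, 22215 probe sets). The 95% intervals are not adjusted. The family is described by counts beside all probe sets, with no set test. Lists hold 1 probe set per gene, the one with the highest mean.

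Named were all family probe sets, called genes of each list or else the 2 of smallest F-test p, and the 5 probe sets most like IGF2 and like the 2 other genes of smallest F-test p. The members and lists were chosen with earlier results of these data known. XIST, RPS4Y1, IGLC1, IGFBP1 and the IGF2 partners PLAGL1, IGF2BP2, M6PR and GNPTAB, which did not pass, were named with their values in view. The main fit of each pairwise comparison was first run on simulated data, whereas the F test and the alternative fits were not. Erythroid markers, 7 of 8 measured, and endothelial markers, 7 of 7, had summed log2 levels of 10.28 to 10.44 and 10.19 to 10.43 over the arrays. Among them, PECAM1 read 8.40 and 8.28 in adult arrays 1 and 2, against at most 8.05 in fetal and infant arrays. The other erythroid and endothelial markers measured did not read above all fetal and infant arrays in both.

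Deviations from the group means correlated at r = 0.145, 0.131 and 0.204 between same-numbered adult and infant arrays, and the blocked count stands beside that comparison. Some differently numbered pairs correlated more, at 0.258 for infant array 2 with adult array 1 and 0.299 for infant array 4 with adult array 3. The numbers in the titles therefore do not establish pairs. Alternatives were other normalisations, filters, spread estimates, array weights, the replicate block, other definitions of the fetal group and leaving out arrays.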

Additional observations from a re-analysis of the deposited data

How the results depend on the processing

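No member was called in any comparison, and the sizes rest on 2 to 4 arrays a group. Counts of calls over all probe sets, in adult minus fetal, were 29 (0.131%), and 221 with the replicate block (0.995%). With trend and robust moderation they were 42 (0.189%), and with only the arrays of the groups compared 16 (0.0720%). They were 120 with array weights (0.540%) and 2 with newborn arrays only as fetal (0.00900%). Family calls there were 0, and 4 with the block (IGF1 209542_x_at, IGF2 202410_x_at and 210881_s_at, IGFBP5 211958_at). There was 1, IGF2 202410_x_at, with trend and robust moderation and with only the groups compared (limma adjusted p = 0.0381 and 0.0249). Array weights gave 4 (IGF1 209542_x_at, IGF2 202410_x_at and 210881_s_at, IGFBP6). Fits with adult array 3 as the only adult array are left out of the adult minus fetal counts, since 1 array shows no spread among adults. Such a fit is listed next for adult minus infant, as without adult arrays 1 and 2. Its passing probe sets describe how adult array 3 differs and are not calls between ages. Adult minus infant gave 4, and 9 with the block, 8 with trend and robust, 2 with only the groups compared, 10 with weights and 44 without adult arrays 1 and 2, and family calls of 0, 1 with trend and robust (IGFBP6) and 2 without adult arrays 1 and 2 (IGFBP3, IGFBP7). Infant minus fetal gave 0, and 2 with the block, 1 on brighter probe sets only and 1 with weights. The F test, whose alternatives were added after the data were seen, called 1 family probe set with trend and robust (IGFBP6). In these alternatives its calls over all probe sets were not counted. Leaving out 1 array gave 4 to 153 calls in adult minus fetal (153 without adult array 3, 120 without fetal array 4, 4 without adult array 1 or 2), 0 to 55 in adult minus infant (55 without adult array 3), 0 to 21 in infant minus fetal (21 without fetal array 4, 4 without infant array 3) and 0 to 2 in newborn minus gestation day 120. The family then had 0 to 3, 0 to 2, 0 to 0 and 0 to 0 calls, and 0 to 2 by the F test.

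With the mean of a gene's probe sets, the median of the IGF2 partners was -0.272 against fetal (-0.446 with the brightest probe set) and -0.048 against infant cultures (-0.160), and that of the growth hormone axis -0.008 (0.117) and 0.004 (0.144). Directions turned in adult minus fetal for IGFBP3 210095_s_at (quantile 0.076, newborn only 0.166, without adult arrays 1 and 2 1.226), IGF2R 201393_s_at (-0.125 newborn only, -0.004 without adult arrays 1 and 2), IGFBP5 211959_at (-0.115 newborn only), IGF1R 203627_at (0.270) and IGFBP2 (0.307), the last 2 without adult arrays 1 and 2. In adult minus infant they turned for IGFBP5 211959_at (block 0.227, quantile 0.012, without adult arrays 1 and 2 0.535), and without adult arrays 1 and 2 for IGF1 209540_at (-0.020) and 209541_at (-0.101), IGF1R (0.510), IGFBP2 (0.261) and IGFBP3 (1.081). Leaving out 1 array turned IGF2R (-0.079 to 0.260), IGFBP3 (-0.616 to 0.345) and IGFBP5 (-0.006 to 0.628) against fetal, and IGF1R (-0.510 to 0.046), IGFBP3 (-0.760 to 0.201) and IGFBP5 (-0.309 to 0.175) against infant cultures, and the dimmer IGFBP5 203426_s_at (-0.089 to 0.258) in newborn minus gestation day 120. The cause was not tested. Of 803 values for single probe sets, 742 kept direction and side of the threshold, 32 turned, 20 newly passed and 9 no longer passed, all 9 of IGF2BP3. These totals include fits without adult arrays 1 and 2, where 1 adult array is left and passing or not cannot be read as an age difference. Deviations from the group means correlated at r = 0.068, 0.043 and -0.096 between same-numbered adult and fetal arrays. Between same-numbered infant and fetal arrays r was 0.116, 0.008, 0.041 and 0.275. For newborn minus gestation day 120 alone, a fit with the replicate block could not be made, since these arrays share no replicate numbers.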
